A study of Mus musculus with 14 samples.

Results

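The tumour suppressor p53 and 9 of its known target genes were followed through every assay of a study of Lin28a+ muscle stem cells. The 10 genes (Trp53, which encodes p53, and Mdm2, Cdkn1a, Bax, Bbc3, Gadd45a, Gadd45b, Ccng1, Sesn1 and Phlda3) were chosen by name and matched by symbol, to Ensembl identifiers in the RNA table and to Entrez identifiers in the RNA immunoprecipitation (RIP) tables. The choice was made with earlier results of these data known. All 10 genes had a row among the 14837 genes of the RNA table, and all 10 passed the filter on low counts. They were also all among the 9416 genes of the m6A-RIP table, where they held 21 of 18881 rows. Mdm2 and Ccng1 were among the 4527 genes of the Igf2bp3-RIP table with 10 of 19465 peaks, and Mdm2 alone was among the 3493 genes of the Lin28a-RIP table with 3 of 21616 peaks.

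The p53 protein is a transcription factor that accumulates and becomes active when DNA is damaged or a cell is otherwise stressed. It switches on genes that halt the cell cycle (Cdkn1a, Gadd45a), genes that trigger apoptosis at the mitochondrion (Bax, Bbc3) and genes that feed back on p53 itself, above all Mdm2, the ubiquitin ligase that sends p53 to degradation. In muscle stem cells (MuSCs), the resident stem cells that repair skeletal muscle, cell cycle exit through Cdkn1a also accompanies differentiation into muscle fibres.

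The study compared control MuSCs with Lin28a+ MuSCs, which the paper describes as sorted by flow cytometry from skeletal muscle of mice carrying Lin28a-CreERT2 and LSL-tdTomato, so that a red reporter marks cells in which the Lin28a promoter has driven Cre. Lin28a and Igf2bp3 are RNA-binding proteins, Igf2bp3 being a reader of N6-methyladenosine (m6A), a methyl mark on mRNA. There were 2 libraries in each of 7 groups: RNA (input), m6A-RIP and Igf2bp3-RIP from both kinds of cells, and Lin28a-RIP from Lin28a+ cells. All cells were kept on Matrigel in DMEM with serum, the input cells carried no treatment according to the labels, and the labels gave neither age nor sex of the mice, nor how control cells were sorted or whether replicates came from separate animals. The p-values thus measured the spread between these libraries, which may be technical. Lin28a RNA was not analysed here. In the RNA table, both columns taken as Lin28a+ are headed with m6A-RIP names and were placed by the sample descriptions, so that each Lin28a+ RNA value and each value relative to input rests on that placement.

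Of 10 myogenic markers, 9 were measured, with a summed level of 9295 to 9728 CPM in control and 11670 to 11814 CPM in Lin28a+ libraries, where CPM is the count scaled to a common library size after TMM normalisation. Pax7 (140 and 155 CPM in control libraries, 194 and 189 CPM in Lin28a+ libraries) and Myod1 (4567 and 4735 CPM, then 4730 and 4743 CPM) were present throughout, and Myog, a gene of early differentiation, was at 752 and 778 CPM in control libraries but at 2773 and 2818 CPM in Lin28a+ libraries. Of the 9 myogenic markers 3 were higher (beside 28.1% of all genes tested), 4 were lower (beside 28.7%) and 2 did not pass. Cdh15 was at 1302 and 1396 CPM in control libraries and at 2275 and 2357 CPM in Lin28a+ libraries. Values were lower for Myf5 (443 and 467 CPM, then 197 and 201 CPM), Sdc4 (207 and 219, then 97.6 and 103), Vcam1 (16.6 and 18.4, then 3.94 and 5.33) and Des (1653 and 1738, then 1189 and 1187). The fibro-adipogenic markers, 4 of 7 of which were measured, summed to 4.42 to 5.34 CPM in control and 13.1 to 13.98 CPM in Lin28a+, nearly all of it Ly6a, with Pdgfra at 0 in both Lin28a+ libraries. The pericyte or smooth muscle markers (4 of 6 measured) summed to 5344 to 5430 CPM and 7446 to 7452 CPM, nearly all of it Acta2, while the pericyte marker Rgs5 went from 2.39 and 2.10 CPM to 0.20 and 0.21 CPM and Myh11 was at most 0.16 CPM. Of 6 endothelial markers 1, Pecam1, was measured, at 0.32 to 0.55 CPM, and of 6 macrophage markers 5 were measured, which summed to 1.57 to 3.13 CPM with Ptprc at 0 in every library. The part of these marker levels in the results below was not tested. The tables summed to 4842915 to 6220960 estimated counts per input library and, in counts, to 21350962 to 31830638 per m6A-RIP library, 9215355 to 34142094 per Igf2bp3-RIP library and 33908110 and 36610494 in the Lin28a-RIP libraries.

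To show the kind of DNA element that p53 binds, the members' RefSeq promoters (GRCm38.p6, 250 bases before to 50 bases after the transcription start, in the direction of the gene) were searched for a p53 response element. The element was taken as 2 decamers of 10 letters with at most 1 base between them, the core C and G of each decamer kept and at most 3 letters off the consensus in all. Because the consensus reads the same on both strands, 1 strand was searched. Windows with a match, the match in capitals, were found for 6 of the 10 genes:
Cdkn1a, chr17:29090923-29090952, + strand, 1 letter off: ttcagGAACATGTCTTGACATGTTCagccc
Ccng1, chr11:40755457-40755486, - strand, 1 letter off: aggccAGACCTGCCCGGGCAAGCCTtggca
Bax, chr7:45467074-45467103, - strand, 2 letters off: tcccAGGCAAGCTTTGAACTTGCGGcaatt
Bbc3, chr7:16309481-16309510, + strand, 3 letters off: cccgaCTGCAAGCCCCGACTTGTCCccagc
Sesn1, chr10:41887261-41887290, + strand, 3 letters off: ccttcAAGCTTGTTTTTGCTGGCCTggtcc
Trp53, chr11:69580279-69580308, + strand, 3 letters off: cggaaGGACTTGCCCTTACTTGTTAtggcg

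Matches of this kind were present in 2.82% of the 32851 promoters in the RefSeq table and in 6 of the 14 promoters of these genes. Of the remaining members, Mdm2 and Gadd45a had a single exact decamer, which 8.36% of all promoters hold, and Gadd45b and Phlda3 had neither. The Sesn1 match was in its downstream promoter. These matches are letters in a sequence and not measured binding, and a promoter without a match says nothing about p53 there, since elements further away, such as those in introns, lie outside the window.

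In the RNA, Trp53 was higher in Lin28a+ MuSCs while most of its called targets were lower. Of the 10 genes, 7 passed an adjusted p of 0.05, 2 higher (Trp53 and Bax) and 5 lower (Mdm2, Cdkn1a, Bbc3, Gadd45a and Ccng1), whereas Gadd45b, Sesn1 and Phlda3 did not pass. The background was high, since 56.8% of all 11317 genes tested passed, 28.1% higher and 28.7% lower. It depended on the tool: by DESeq2 3039 of the 11317 genes passed, 1479 higher and 1560 lower, and 6 of the 10 members. The median log2 fold change was -0.34 over the 10 genes and 0.01 over all genes tested. The standard errors printed are those of edgeR's quasi-likelihood fit, and DESeq2 gave larger ones for each of the 10 genes. By DESeq2 they were 0.15 for Trp53, 0.24 for Mdm2, 0.16 for Gadd45a and 0.11 for Bax (adjusted p = 0.0279 for Bax). As these are levels in bulk cultures, fewer cells that express a gene and less RNA per cell cannot be told apart.

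Trp53 RNA was at 53.7 and 58.7 CPM in the control libraries and at 98.8 and 97.4 CPM in the Lin28a+ libraries. Both Lin28a+ libraries therefore lay above both controls, at a level 1.73-fold higher (log2 fold change 0.79 ± 0.04 SE, adjusted p = 6.26e-05, n = 2 libraries per group). The RefSeq gene (chr11:69580348-69591873, + strand) lies 97 bases from Wrap53, a gene that runs in the opposite direction and that was itself higher by 0.93 ± 0.10 on the log2 scale. Whether the counting used strand is not given in the sources used here.

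Mdm2, the main inhibitor of p53 and one of its targets, went the other way. Its RNA was at 40.1 and 42.2 CPM in control and at 20.5 and 18.7 CPM in Lin28a+ libraries. The level was thus 2.12-fold lower in Lin28a+ cells, with no overlap between the groups (log2 fold change -1.08 ± 0.06, adjusted p = 6.96e-05).

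The cell cycle genes among the targets were lower or did not pass. Cdkn1a (chr17:29090979-29100722, + strand), which encodes an inhibitor of cyclin-dependent kinases, was at 764 and 803 CPM in control and at 528 and 537 CPM in Lin28a+ libraries, 1.48-fold lower (log2 fold change -0.57 ± 0.03, adjusted p = 3.37e-05). Gadd45a (chr6:67035096-67037407, - strand), a stress sensor linked to growth arrest and DNA repair, was at 102.5 and 101.9 CPM in the controls against 43.9 and 41.6 CPM in the Lin28a+ libraries, the largest decrease among the 10 genes at 2.41-fold (log2 fold change -1.27 ± 0.04, adjusted p = 1.63e-05). In both genes every Lin28a+ library was below every control library. Gadd45a overlaps the long non-coding RNA gene E230016M11Rik in the RefSeq annotation, and reads of the overlap cannot be assigned without strand. Its relative Gadd45b (chr10:80930091-80932204, + strand) was at 11.96 and 13.9 CPM in the controls against 12.8 and 13.5 CPM in the Lin28a+ libraries, so that the groups overlapped (log2 fold change 0.01 ± 0.17, adjusted p = 0.979).

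Ccng1, cyclin G1, which acts with a phosphatase in the regulation of Mdm2 and p53, had the smallest p of the 10 genes. Its RNA was at 834 and 846 CPM in control and at 426 and 428 CPM in Lin28a+ libraries. The libraries of a group differed by far less than the groups did, and the level was 1.99-fold lower in Lin28a+ cells (log2 fold change -0.99 ± 0.02, adjusted p = 5.70e-06).

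The 2 pro-apoptotic genes moved in opposite directions. Bax (chr7:45461695-45466903, - strand), which permeabilises the outer mitochondrial membrane, was at 127.1 and 128.2 CPM in control and at 158.3 and 162.2 CPM in Lin28a+ libraries, 1.24-fold higher (log2 fold change 0.32 ± 0.03, adjusted p = 3.65e-04). Bbc3 (chr7:16308398-16318334, + strand), which encodes the BH3-only protein Puma, was at 8.28 and 7.92 CPM in control and at 4.53 and 5.95 CPM in Lin28a+ libraries, 1.56-fold lower (log2 fold change -0.64 ± 0.24, adjusted p = 0.0177). Bbc3 had the fewest estimated counts of the members, 23 to 49.25 per library, and its call was lost with DESeq2 (adjusted p = 0.385), without control input replicate 1 (adjusted p = 0.0691) and without Lin28a+ input library a (adjusted p = 0.205).

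Sesn1 (chr10:41810574-41908436, + strand), a sestrin that restrains mTORC1 signalling under stress, was at 9.75 and 11.2 CPM in control and at 10.6 and 9.02 CPM in Lin28a+ libraries (log2 fold change -0.10 ± 0.19, adjusted p = 0.668). Phlda3 (chr1:135766085-135769134, + strand), an inhibitor of Akt, was at 429 and 428 CPM in control and at 423 and 425 CPM in Lin28a+ libraries (log2 fold change -0.03 ± 0.03, adjusted p = 0.476). The Sesn1 libraries overlapped between the groups, whereas those of Phlda3 did not although its difference was small. The libraries of the groups did not overlap in 8 of the 10 genes, against 84.3% of all genes tested. The plot of levels by library shows both these RNA values and the m6A-RIP levels described further on.

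**Figure D1:**
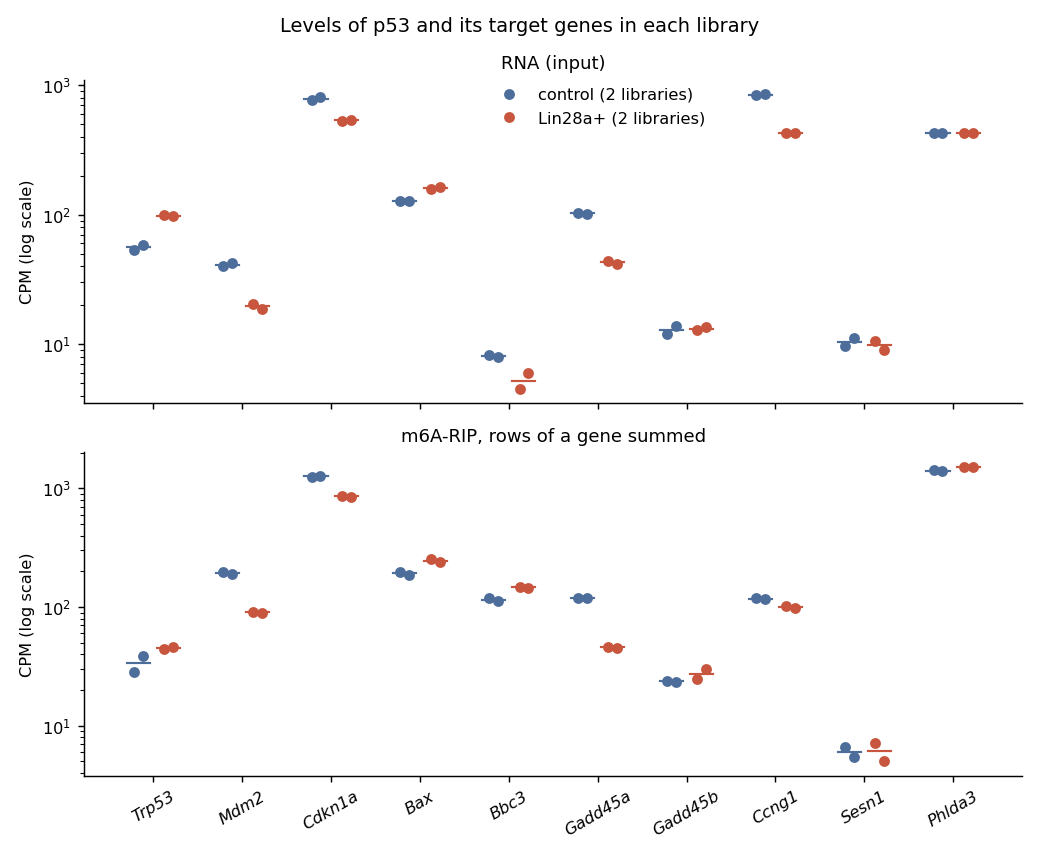
Level of p53 and its target genes in each library, in CPM on a log axis, for RNA (top) and for m6A-RIP with the rows of a gene summed (bottom); points are libraries (2 per group) and lines are group means. Trp53 and Bax lie higher in Lin28a+ cells in both panels, Mdm2, Cdkn1a, Gadd45a and Ccng1 lie lower in both, and Bbc3 lies lower in RNA and higher in m6A-RIP.

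Genes that regulate p53, other p53 targets and relatives of the 10 genes were then described from lists written by hand. Of 21 p53 regulators tested in RNA, 3 were higher (14.3%, beside 28.1% of all genes tested), 8 were lower (38.1%, beside 28.7%) and 10 did not pass, with a median log2 fold change of -0.23. Cdkn2a, which encodes the Mdm2 antagonist Arf and the kinase inhibitor Ink4a, was at 319.9 and 324.3 CPM in control and at 70.5 and 68.3 CPM in Lin28a+ libraries, the lowest change of the list (log2 fold change -2.23 ± 0.03, adjusted p = 1.97e-06). The kinase gene Hipk2 (log2 fold change -1.13 ± 0.05) and the ubiquitin ligase gene Huwe1 (-0.74 ± 0.05) were also lower. Wrap53 (0.93 ± 0.10), the deubiquitinase gene Usp10 (0.48 ± 0.16) and Daxx (0.53 ± 0.20) were the 3 that were higher, with adjusted p values of 6.06e-04, 0.00759 and 0.0141. Among the other lower genes were the p53 inhibitor gene Mdm4 (-0.52 ± 0.19, adjusted p = 0.0150) and Atm, the kinase that activates p53 after DNA breaks (-1.18 ± 0.10, adjusted p = 2.90e-04), both named after their values were seen.

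Among 37 other p53 target genes, 35 were tested, of which 5 were higher, 16 were lower and 14 did not pass, with a median log2 fold change of -0.20. The lower targets with the smallest p were Ephx1, an epoxide hydrolase (-1.18 ± 0.05), Eda2r, a receptor of the TNF receptor family (-1.15 ± 0.05), and Trp53inp1, which promotes p53 activity under stress (-1.67 ± 0.10). On the higher side were Cd82 (0.74 ± 0.03), a tetraspanin, the ribosomal protein gene Rps27l (0.41 ± 0.03) and Gpx1 (0.29 ± 0.02), a glutathione peroxidase. The share of lower genes in this list, 45.7%, stood beside 28.7% of all genes tested, and the share of higher genes, 14.3%, stood beside 28.1%. No test of the list was made, because it was written with earlier results of these libraries known.

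Relatives of the 10 genes divided evenly, with 5 higher, 5 lower and 1 not called among 11 tested (45.5% in each direction, beside 28.1% higher and 28.7% lower of all genes tested) and a median log2 fold change of 0.24. Cdkn1c, a relative of Cdkn1a, was at 0.55 and 0.32 CPM in control and at 11.2 and 10.5 CPM in Lin28a+ libraries (log2 fold change 4.57 ± 0.20, adjusted p = 3.35e-05). The third gene of this kinase inhibitor family, Cdkn1b, was also higher (0.60 ± 0.08, adjusted p = 0.00108; named after its value was seen), so that Cdkn1a was lower while both of its relatives were higher. Phlda1 (-1.58 ± 0.06) and Sesn3 (-1.50 ± 0.06) were lower, although Phlda3 and Sesn1 did not pass.

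Of 10 members of the Bcl-2 family tested, which includes the relatives of Bax and Bbc3, 3 were higher (30%, beside 28.1% of all genes tested) and 6 were lower (60%, beside 28.7%), with a median of -0.49. The 3 that were higher, Bak1 (0.64 ± 0.04), Bok (0.88 ± 0.10) and Bad (0.45 ± 0.11), are all pro-apoptotic. Among the 3 lower genes with the smallest p, Bcl2l1 (-1.44 ± 0.06) encodes the survival protein Bcl-xL, whereas Bid (-0.63 ± 0.06) and Pmaip1 (-1.05 ± 0.11), itself a p53 target known as Noxa, are pro-apoptotic. The other 3 lower genes, named after their values were seen, encode survival proteins: Bcl2 (-1.95 ± 0.23, the lowest of the list), Bcl2l2 (-0.50 ± 0.06) and Mcl1 (-0.14 ± 0.04). The pro-apoptotic Bcl2l11 did not pass (-0.47 ± 0.28, adjusted p = 0.142).

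**Figure D2:**
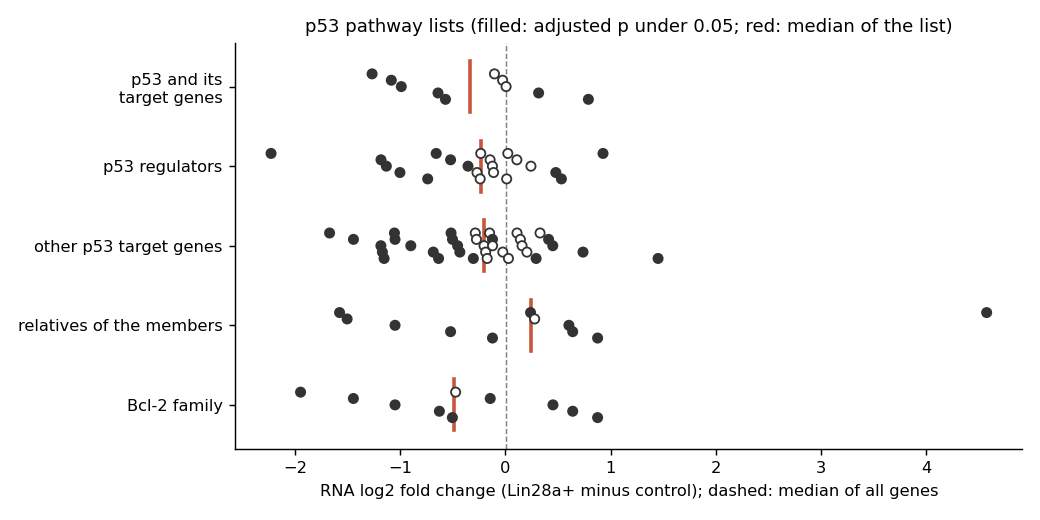
RNA log2 fold change (Lin28a+ minus control) of each tested gene of p53 and its targets and of the 4 pathway lists; filled points passed an adjusted p of 0.05, red bars are list medians and the dashed line is the median of all genes. The other p53 targets spread from -1.67 to 1.45 with most called genes left of the line, and Cdkn1c stands apart at 4.57.

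In the m6A-RIP, where reads of RNA pulled down with an m6A antibody were counted, 8 of the 10 genes passed when the rows of a gene were summed, against 66.2% of 9413 genes, 32.5% higher and 33.7% lower. Trp53, Bax, Bbc3 and Phlda3 were higher, and Mdm2, Cdkn1a, Gadd45a and Ccng1 were lower. The m6A-RIP level of a gene holds both how much RNA there is and how much of it is pulled down, so that it is set beside the RNA in each case. The libraries of the groups did not overlap for 9 of the 10 genes, against 82.6% of all genes.

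For Mdm2, Cdkn1a, Gadd45a and Bax the m6A-RIP moved nearly as the RNA did. Mdm2 was at 195.7 and 191.5 CPM in control and at 91.4 and 89.5 CPM in Lin28a+ m6A-RIP libraries (log2 fold change -1.10 ± 0.04, adjusted p = 3.55e-10). Cdkn1a changed by -0.57 ± 0.04 (adjusted p = 3.02e-08), Gadd45a by -1.39 ± 0.05 (adjusted p = 2.02e-10) and Bax by 0.35 ± 0.05 (adjusted p = 3.20e-05). These stood beside RNA changes of -1.08, -0.57, -1.27 and 0.32 in the same order, and the differences are tested below.

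Trp53 was at 28.5 and 38.8 CPM in control and at 44.4 and 46.2 CPM in Lin28a+ m6A-RIP libraries. The groups did not overlap (log2 fold change 0.44 ± 0.11, adjusted p = 0.00440), yet its 2 control libraries stood further apart, relative to their mean, than those of any other member. The estimate was 0.22 (adjusted p = 0.0336) without control m6A-RIP replicate 1 and 0.67 (adjusted p = 5.10e-11) without control m6A-RIP replicate 2. Ccng1 was at 118.2 and 116.8 CPM in control and at 103.0 and 98.9 CPM in Lin28a+ m6A-RIP libraries, a decrease of 1.16-fold (log2 fold change -0.22 ± 0.04, adjusted p = 7.61e-04) where its RNA was 1.99-fold lower.

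Bbc3 was the gene in which both readouts passed in opposite directions, the RNA call with the exceptions named above. Its m6A-RIP level was 118.3 and 113.3 CPM in the controls against 148.1 and 144.4 CPM in the Lin28a+ libraries (log2 fold change 0.34 ± 0.04, adjusted p = 1.99e-05), while its RNA was lower. Phlda3 was at 1423 and 1393 CPM in control and at 1510 and 1507 CPM in Lin28a+ libraries (log2 fold change 0.10 ± 0.03, adjusted p = 0.0205), a difference that fell to -0.0021 (adjusted p = 0.960) when libraries were scaled by total counts, a scaling that moved the median of all genes from 0.0069 to -0.095, and that missed the threshold without any 1 of the 4 libraries (adjusted p between 0.0627 and 0.180). Gadd45b (0.21 ± 0.10, adjusted p = 0.0745) and Sesn1 (0.00 ± 0.21, adjusted p = 0.997) did not pass, although Gadd45b passed at 0.33 without Lin28a+ m6A-RIP library a (adjusted p = 0.0136) and was at 0.07 without Lin28a+ m6A-RIP library b (adjusted p = 0.605).

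A model of RNA and m6A-RIP together tested whether the m6A-RIP changed more or less than the RNA. It uses the same libraries as both comparisons above. Of the 10 genes 2 passed, both higher relative to RNA, against 7.16% of 7950 genes, 3.06% higher and 4.1% lower. For Ccng1 the m6A-RIP relative to input was 1.69-fold higher in Lin28a+ cells (log2 difference 0.75 ± 0.04, adjusted p = 3.12e-06), and this call was kept in each alternative run. For Bbc3 it was 1.95-fold higher (log2 difference 0.96 ± 0.18, adjusted p = 0.00857), a call that was lost without control input replicate 1 (adjusted p = 0.0562) and without Lin28a+ input library a (adjusted p = 0.138).

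For Trp53 the log2 difference was -0.36 ± 0.17 and did not pass (adjusted p = 0.345). It passed at -0.58 ± 0.07 (adjusted p = 0.00299) when control m6A-RIP replicate 1 was left out, the library with the lower Trp53 level, and it was -0.13 (adjusted p = 0.550) without control m6A-RIP replicate 2. The differences of Mdm2 (-0.03 ± 0.11), Cdkn1a (-0.01 ± 0.04), Bax (0.02 ± 0.07) and Gadd45a (-0.13 ± 0.09) did not pass either, and the small standard error of Cdkn1a bounds its difference most closely. Gadd45b (0.19 ± 0.18), Sesn1 (0.08 ± 0.30) and Phlda3 (0.11 ± 0.04, adjusted p = 0.184) completed the list.

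**Figure D3:**
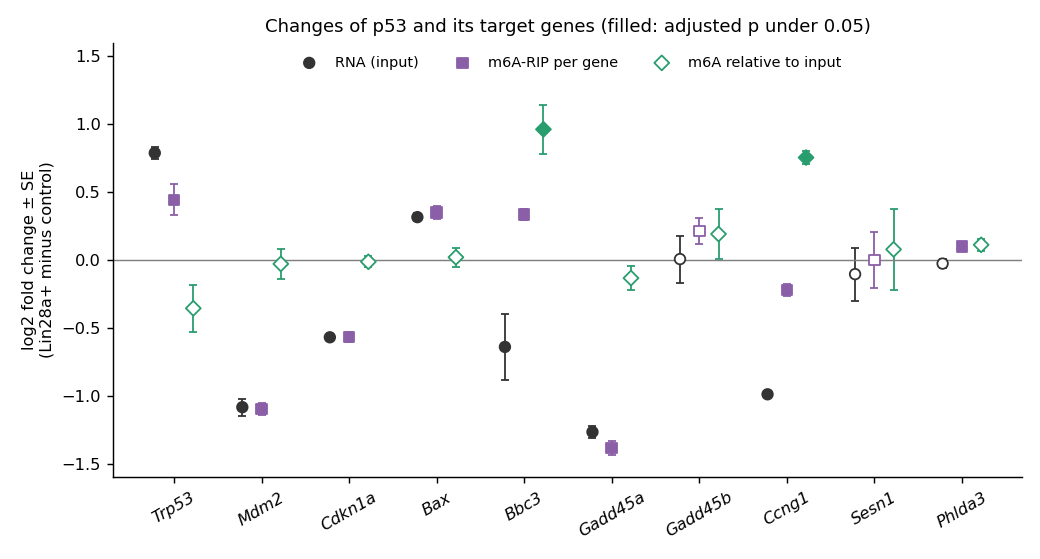
Log2 fold change with standard error (Lin28a+ minus control) of each gene in RNA, in m6A-RIP and in m6A-RIP relative to input; filled symbols passed an adjusted p of 0.05. The RNA and m6A-RIP symbols of Mdm2, Cdkn1a, Bax and Gadd45a nearly coincide, and the relative difference is filled for Bbc3 (0.96) and Ccng1 (0.75) alone.

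The m6A-RIP table lists 1 to 5 rows per member, each a region of a transcript, without its position. Of the 21 rows, 17 passed, 7 higher and 10 lower, against 61.8% of all 18881 rows, 30% higher and 31.8% lower, and in 17 rows the libraries of the groups did not overlap, against 80.6%. With libraries scaled by total counts, the median log2 fold change over the rows went from 0.0024 to -0.15 and the higher and lower calls from 5665 and 6005 to 3842 and 7638, and the estimates of all 21 rows of the members were lower. A test of unequal change among the rows of a gene, added after the row values had been seen, passed in 5 of the 7 members with more than 1 row, against 19.2% of the 4901 genes with several rows.

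The rows of Ccng1 changed in opposite directions. Its row 1 was at 71.1 and 72.3 CPM in control and at 42.5 and 41.4 CPM in Lin28a+ libraries (log2 fold change -0.77 ± 0.06, adjusted p = 4.69e-08). Its row 2, annotated to another transcript of the gene, was at 45.1 and 42.1 CPM in control and at 62.5 and 59.1 CPM in Lin28a+ libraries (log2 fold change 0.48 ± 0.06, adjusted p = 1.85e-05). Beside an RNA change of -0.99, the gene thus held a row that fell and a row that rose (adjusted p of unequal rows 1.95e-08).

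Bbc3 showed the same division within 1 annotated transcript. Its row 1 was at 39.7 and 34.6 CPM in control and at 28.5 and 25.9 CPM in Lin28a+ libraries (log2 fold change -0.46 ± 0.09, adjusted p = 4.82e-04). Its row 2 was at 76.7 and 76.3 CPM in control and at 122.6 and 120.9 CPM in Lin28a+ libraries (log2 fold change 0.67 ± 0.05, adjusted p = 7.79e-08). Beside an RNA change of -0.64, row 1 was lower and row 2 was higher (adjusted p of unequal rows 3.28e-07).

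In Phlda3, whose RNA did not pass, row 1 was at 225.2 and 226.4 CPM in control and at 389.4 and 378.8 CPM in Lin28a+ libraries, 1.70-fold higher (log2 fold change 0.77 ± 0.05, adjusted p = 4.31e-09). Rows 2 and 3 stood at -0.01 ± 0.05 and 0.00 ± 0.04 and overlapped between the groups, although both passed as lower under total counts (-0.16 each, adjusted p = 0.00630 and 0.00315). The 3 rows thus did not change alike (adjusted p of unequal rows 5.97e-07).

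Unequal rows in Cdkn1a and Mdm2 kept 1 direction. The 5 rows of Cdkn1a were all lower, row 1 by -1.23 ± 0.13 and rows 2 to 5 by -0.45 to -0.54 (adjusted p of unequal rows 9.90e-04). Row 1 had the fewest reads of the 5, at 17.9 and 18.8 CPM in control and at 8.47 and 7.25 CPM in Lin28a+ libraries. In Mdm2, row 1 (4.72 and 4.69 CPM, then 0.80 and 1.69 CPM) changed by -1.87 ± 0.31 and row 2 (187.8 and 182.9 CPM, then 92.5 and 89.3 CPM) by -1.03 ± 0.05 (adjusted p of unequal rows 0.0304), and row 1 held only 18 and 50 counts in the Lin28a+ libraries. When the same test set each row singly against its gene, neither row of Mdm2 passed (adjusted p = 0.0640 for row 1).

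The 2 rows of Trp53 (0.28 ± 0.17 and 0.58 ± 0.11) and of Bax (0.39 ± 0.05 and 0.43 ± 0.06) did not pass the test of unequal rows (adjusted p = 0.440 and 0.856). The rows of Bax were at 0.23 and 0.27 under total counts and passed there too (adjusted p = 0.00171 and 0.00195). Row 1 of Trp53 did not pass by itself (adjusted p = 0.174), and its estimate was -0.0060 without control m6A-RIP replicate 1 (adjusted p = 0.980) and 0.60 without control m6A-RIP replicate 2 (adjusted p = 0.00455). The single rows of Gadd45a (-1.33 ± 0.05), Gadd45b (0.27 ± 0.10, adjusted p = 0.0315) and Sesn1 (0.05 ± 0.21) gave nearly the values of the genes. Gadd45b passed by row and not by gene, and its row lost the call without control m6A-RIP replicate 1 (adjusted p = 0.0550), without control m6A-RIP replicate 2 (adjusted p = 0.0713) or without Lin28a+ m6A-RIP library b (adjusted p = 0.299), and likewise with DESeq2 (adjusted p = 0.0700) and under total counts (0.11, adjusted p = 0.346).

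**Figure D4:**
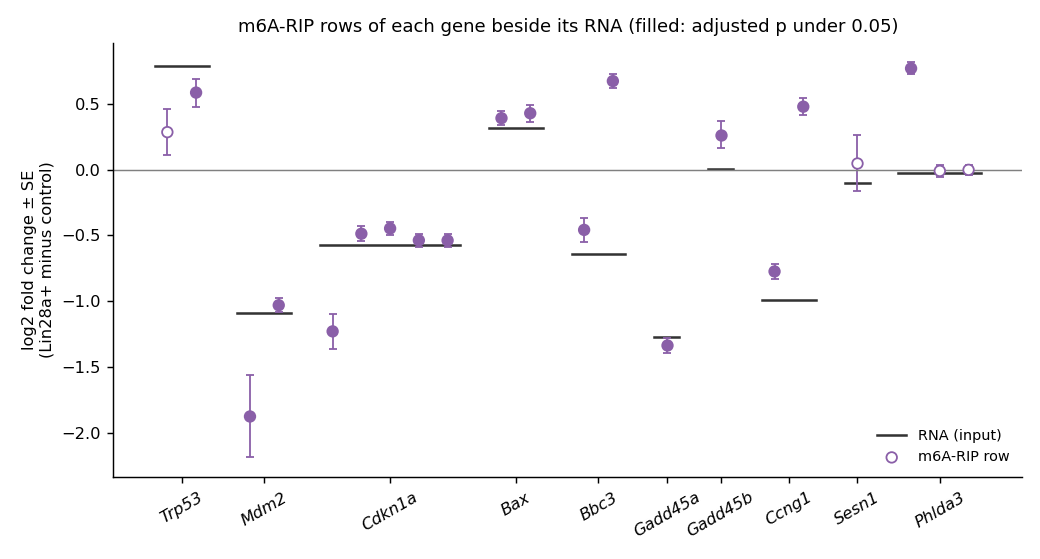
Log2 fold change with standard error (Lin28a+ minus control) of each m6A-RIP row of a gene, in table order, with the RNA change of the gene as a black line; filled points passed an adjusted p of 0.05. Ccng1 and Bbc3 each have 1 row below and 1 row above 0, and row 1 of Phlda3 lies at 0.77 while its other rows lie near 0.

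The m6A-RIP signal relative to the RNA was described as the m6A-RIP level minus the RNA level of the same cells on the log2(CPM + 1) scale, ranked among the 7415 genes tested in both. Bbc3 ranked highest of the members, at percentile 97.8 in control and 98.9 in Lin28a+ cells, with differences of 3.68 and 4.57. Mdm2 was at percentiles 87.1 and 86.8, and Phlda3 at 79.0 and 81.4. Ccng1 ranked lowest, at percentiles 4.03 and 8.50, with differences of -2.83 and -2.07, so that it lay far below the median gene (0.52 in control, 0.48 in Lin28a+) in both kinds of cells. Cdkn1a (54.4 and 54.9), Bax (51.7 and 53.3), Gadd45b (58.0 and 63.2) and Gadd45a (42.5 and 40.3) were in the middle of the ranking, and Trp53 (23.4 and 18.5) and Sesn1 (23.9 and 25.8) were below it. In both kinds of cells 6 of the 10 members lay above the median gene. These ranks compare genes of different length within tables that count regions and genes, and they carry no test. For part of the genes the input values are whole numbers divided by 2 to 12, as given under the processing. Such a division lowers the RNA level of a gene, so that its difference and rank come out higher. How far it moved the ranks of the members was not tested.

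Among expressed genes, 65.6% had a row in the m6A-RIP table, 32.9% in the Igf2bp3-RIP table and 25.4% in the Lin28a-RIP table. Of the 10 members, 10, 2 and 1 did. Mdm2 was the member listed by all 3 RIPs. Listing in both the Igf2bp3-RIP and the Lin28a-RIP table, which it alone of the 10 had, was found for 20.2% of expressed genes. The peaks deposited for the RIPs are used as given, and the absence of a peak is no measurement of binding.

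The Igf2bp3-RIP peaks of Mdm2 and Ccng1 lay inside their genes on GRCm38 coordinates. Mdm2 (chr10:117688875-117710758, - strand) held 5 peaks, of which the widest, chr10:117689455-117690887, lay 580 to 2012 bases from the gene's 3′ end. Ccng1 (chr11:40748552-40755309, - strand) also held 5 peaks, the widest being chr11:40749372-40751249, 820 to 2697 bases from the 3′ end. In both genes the widest peak also had the highest count, and the other peaks were 200 to 531 bases wide. Since counts rise with width, the heights of peaks are not compared with each other here.

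None of the 10 peaks passed in the comparison of Lin28a+ with control cells by edgeR's quasi-likelihood test, and none had an unadjusted p under 0.05 or passed with DESeq2. Over all peaks 24 of 19465 passed, or 0.123% (0.0616% higher and 0.0616% lower), and 1017 had an unadjusted p under 0.05. With the replicate number as a block, 1988 peaks passed, among them 1 of these 10, Mdm2 peak 5 (-0.56 ± 0.20, adjusted p = 0.0463), though no label ties the numbers to a shared batch. The spread between replicates was large, a coefficient of variation of 27.9%, and the standard errors of the 10 peaks ran from 0.27 to 0.36 on the log2 scale.

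The main Mdm2 peak was at 352 and 223 CPM in control and at 246 and 181 CPM in Lin28a+ Igf2bp3-RIP libraries, and the groups overlapped (log2 fold change -0.43 ± 0.34, adjusted p = 1.00). All 5 Mdm2 peaks had estimates below 0, from -0.43 to -0.59. The main Ccng1 peak was at 1103 and 1005 CPM in control and at 1441 and 1103 CPM in Lin28a+ libraries (log2 fold change 0.27 ± 0.32, adjusted p = 1.00), so that the groups touched without overlapping, and the 5 Ccng1 estimates ran from 0.03 to 0.28. In 4 of the 10 peaks the libraries of the groups did not overlap, against 31.8% of all peaks. Peaks of 1 gene share their transcripts and libraries and are not replicates of each other.

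Summed per gene, Ccng1 was at 1566 and 1824 CPM in control and at 1985 and 1923 CPM in Lin28a+ Igf2bp3-RIP libraries, whereas its RNA was 1.99-fold lower. Relative to input this was a log2 difference of 0.97 ± 0.19, which did not pass (adjusted p = 0.0628 by edgeR's quasi-likelihood test). The model held no replicate block, and a block on its Igf2bp3-RIP libraries was not run. Over all 3927 genes 1.04% passed, 0.357% higher and 0.688% lower. The Ccng1 difference passed without control Igf2bp3-RIP replicate 2 (adjusted p = 0.0470), without Lin28a+ Igf2bp3-RIP replicate 1 (adjusted p = 0.0256) or without Lin28a+ Igf2bp3-RIP replicate 2 (adjusted p = 0.0455), settings in which 129, 570 and 198 genes passed against 41 with all libraries. Without any 1 of the 4 input libraries it did not pass (adjusted p between 0.320 and 0.343), nor did any other gene. Mdm2 was at 490 and 354 CPM in control and at 328 and 284 CPM in Lin28a+ libraries, with a log2 difference relative to input of 0.39 ± 0.25 (adjusted p = 0.402). Neither of the 2 genes passed with all libraries, also with DESeq2, and Ccng1 had an unadjusted p under 0.05.

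The Lin28a-RIP held 3 peaks of Mdm2, measured in Lin28a+ cells alone. They were at 35.7 and 40.1 CPM (chr10:117689050-117689513), at 96.0 and 95.8 CPM (chr10:117689874-117690881) and at 11.97 and 11.7 CPM (chr10:117695051-117695254) in the 2 libraries. All 3 shared 1 base or more with an Igf2bp3-RIP peak, and for 2 of them the shared stretch made up at least 50% of both peaks. The main Lin28a-RIP peak of 1008 bases lay wholly within the widest Igf2bp3-RIP peak. The Lin28a-RIP level of Mdm2 minus its RNA level ranked at percentile 68.8 among 2868 genes, and its Igf2bp3-RIP level at percentiles 81.8 in control and 84.4 in Lin28a+ cells among 3716 genes. Ccng1, at percentiles 44.1 and 60.5 in the Igf2bp3-RIP, had no row in the Lin28a-RIP table. The limit set by divided input values, named for the m6A-RIP ranks, holds for these percentiles too.

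**Figure D5:**
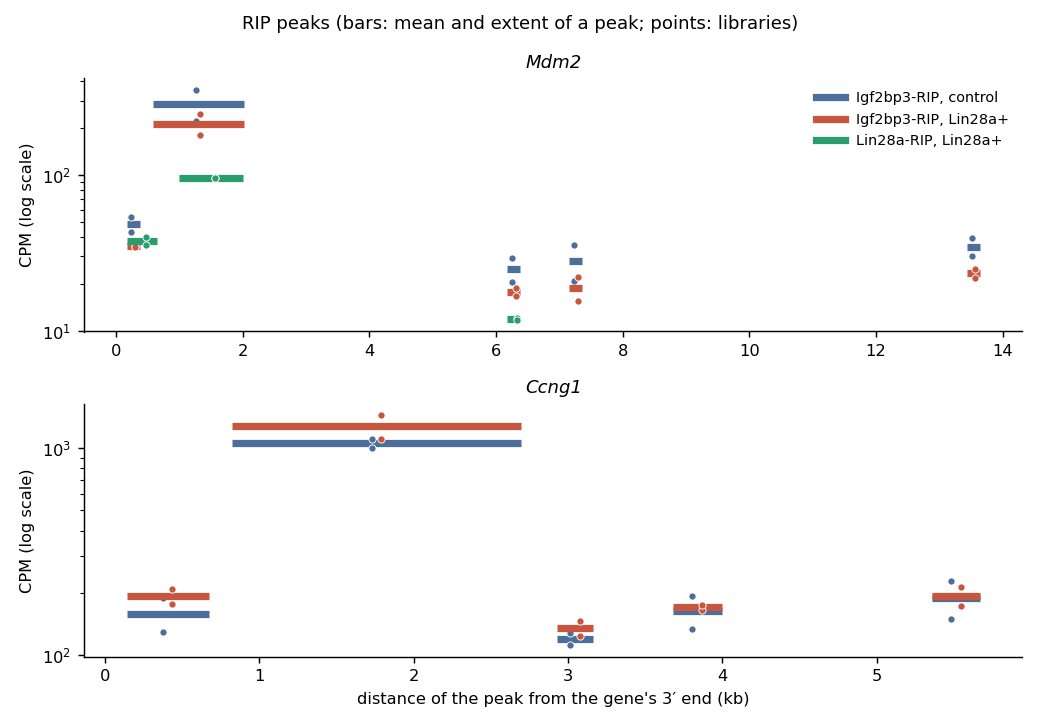
Peaks of Mdm2 (top) and Ccng1 (bottom) by their distance from the 3′ end of the gene in kb, with the level in CPM on a log axis; bars span a peak at its group mean and points are libraries (2 per group). The widest peak of each gene lies within 2697 bases of the 3′ end, and the control and Lin28a+ libraries of the Igf2bp3-RIP overlap in 6 of the 10 peaks.

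Finally, the genes whose levels over the 8 input and m6A-RIP libraries were most like those of p53, its inhibitor and its main arrest target were listed, by the Euclidean distance of centred log2(CPM + 1) among 7415 genes. Closest to Trp53 were Grhpr (distance 0.10), Tenm4 (0.17) and Dpy30 (0.19). Closest to Mdm2 were Spag9 (0.04), Ncam1 (0.09) and Bace1 (0.10), and closest to Cdkn1a were Actn4 (0.02), Rragc (0.04) and Asb5 (0.05). With 8 libraries in 4 groups, any gene that changed by a like amount in both assays comes close, so that these are a description of likeness alone.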

How the data were processed

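For the 3 RIP assays the authors deposited counts of reads in each peak or row, as whole numbers with no scaling between libraries, and estimated counts per gene for the input, which need not be whole; these were rounded before testing. Peak positions are other columns that the authors deposited; the m6A-RIP table had none. The submitters' processing notes name FastQC, HISAT2 2.0.4, DESeq2 1.42.0, MACS2 1.4.3, GRCh38 and mm10, and the paper names GRCh38 for the alignment, yet the identifiers and coordinates are those of mouse genes. The counting program, the peak threshold and how replicates entered peak calling are not given in the sources used here.

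Columns were assigned by name, except the Lin28a+ columns of the input table. These are headed with m6A-RIP names and were placed as Lin28a+ input because the descriptions of the input samples name this table, so their numbers cannot be tied to a numbered input library. The Lin28a+ columns of the m6A-RIP table share 1 name. Both pairs are called library a and library b. No column of per-sample values was left unused. Replicate libraries differed beyond counting noise in each RIP (chi-square per degree of freedom 4.46 to 99.7). Over all 14837 input genes the value was 3.72 in control but 0.886 in Lin28a+. However, for 43.5% of input genes above 0 the 4 values were all whole or a whole number divided by 2 to 12 (tolerance 0.01), and division lowers this statistic. Among genes with a mean of 20 to 2000, it was 1.70 (512 genes, control) and 1.80 (504 genes, Lin28a+) for whole values (tolerance 1e-06), and for divided values it went from 0.427 to 1.72 (control) and from 0.399 to 1.64 (Lin28a+) once multiplied back, so no pair was counted as 1 sample. How the division arose is not given in the sources used here, and the input values thus understate the reads behind them.

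Tests used edgeR 4.0.16 in R 4.3.3: quasi-likelihood, two-sided, TMM factors, filterByExpr, Benjamini-Hochberg over all features, called at an adjusted p under 0.05. Rows of the m6A-RIP were fitted singly and as sums over each gene. Results relative to input came from 1 model with an interaction of cells and assay. Unequal rows were tested with diffSpliceDGE. With 2 libraries per group, the spread rests on all features together, and single-value permutation tests cannot pass the threshold. Scripts were tested on simulated data. The pseudocount was 1 CPM. Identifiers matched a gene for 99.96% to 99.98% of rows, and 10 of 10 members had RefSeq promoters.

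The 10 genes, the pathway lists and the marker lists were chosen with earlier results of these data known. From each list, up to 3 higher and 3 lower genes with the smallest p and no overlap between groups were named; the genes nearest to Trp53, Mdm2 and Cdkn1a were the 3 with the smallest distance. Alternatives were DESeq2, RLE factors, total counts, other filters on low counts, leaving out each library, a replicate block, a pseudocount of 0.1 CPM and a stricter peak overlap.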

Additional observations from a re-analysis of the deposited data

How the results depend on the processing

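In the 6 comparisons refitted under other settings, the members' counts of calls stayed within 1.5 times under those not named here; the test of unequal rows was run in 1 setting. Leaving out 1 library gave 1 to 3 genes called in m6A relative to input (2 with all libraries) and 0 to 1 in Igf2bp3-RIP relative to input (0 with all). With total counts in place of TMM, Phlda3 in m6A-RIP went from 0.10 to -0.0021. That scaling shifted features alike, the median log2 fold change over all m6A-RIP genes from 0.0069 to -0.095, over rows from 0.0024 to -0.15 and of Igf2bp3-RIP relative to input from 0.03 to 0.17, and changed the higher and lower calls from 3060 and 3176 to 2390 and 3765 (m6A-RIP genes), from 5665 and 6005 to 3842 and 7638 (rows) and from 14 and 27 to 33 and 13 (Igf2bp3-RIP relative to input).

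Over all features, DESeq2 called 3039 genes in RNA (6432 by edgeR), 334 in m6A relative to input (569), 263 Igf2bp3-RIP peaks (24) and 69 genes in Igf2bp3-RIP relative to input (41). At least 10 counts in every library gave 0 Igf2bp3-RIP peaks. Without 1 library, the calls ran from 299 to 621 in m6A relative to input, from 108 to 193 among Igf2bp3-RIP peaks and from 0 to 570 in Igf2bp3-RIP relative to input. The cause was not tested.

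The Igf2bp3-RIP columns carry replicate numbers in both groups, and replicate 2 minus replicate 1 correlated between the groups (Pearson r = 0.703 across 19465 peaks, which are not independent), but no label ties a number to a shared batch, litter or day. With the replicate block, 1988 peaks were called, and 1 of the members' 10 peaks, Mdm2 peak 5 (-0.56 ± 0.20, adjusted p = 0.0463). For the comparisons of RNA and m6A-RIP no paired analysis was possible. The Lin28a+ columns of the input table are headed with numbered m6A-RIP names, which tie them to no numbered input library. Both Lin28a+ columns of the m6A-RIP table have the same heading. Igf2bp3-RIP relative to input was also fitted without a block. A block on its Igf2bp3-RIP libraries alone, which are numbered in both groups, was not run. The small estimated counts of the input (23 to 49.25 for Bbc3) limit the precision of the fits, although they can understate the reads behind them. The replicates of the Igf2bp3-RIP had a coefficient of variation of 27.9%.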

Other observations

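Among the listed genes outside the 10 members, m6A-RIP relative to input passed for 1 of 18 p53 regulators, 1 of 27 other p53 targets, 0 of 9 relatives and 1 of 8 Bcl-2 family genes, against 7.16% of all genes. All 3 were higher in Lin28a+ cells: Ppp1r13b, which encodes the p53-binding protein Aspp1 (log2 difference 4.05 ± 0.60, adjusted p = 0.00192), Rrm2b, the p53-induced subunit of ribonucleotide reductase (1.44 ± 0.31, adjusted p = 0.0180), and Bid (0.38 ± 0.08, adjusted p = 0.0124). They were named after their values were seen. The RNA of Ppp1r13b did not pass (-0.12 ± 0.21, adjusted p = 0.626), whereas that of Rrm2b was lower (-1.17 ± 0.35, adjusted p = 0.00228).

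In m6A-RIP summed per gene, 5 of 18 p53 regulators were higher and 8 were lower, and of 27 other p53 targets 6 were higher and 14 were lower. Of 9 relatives 5 were higher and 2 were lower, and of 9 Bcl-2 family genes 4 were higher and 5 were lower. Over all genes 32.5% were higher and 33.7% were lower. Cdkn2a changed by -2.35 ± 0.05 (adjusted p = 1.34e-12), Trp53inp1 by -1.58 ± 0.12 (adjusted p = 1.44e-07), Bcl2l1 by -1.25 ± 0.06 (adjusted p = 1.71e-09) and Cdkn1c by 4.95 ± 0.22 (adjusted p = 1.31e-09). Rrm2b, whose RNA was lower, did not pass (0.28 ± 0.13, adjusted p = 0.0771), and Ppp1r13b, whose RNA did not pass, was higher (3.94 ± 0.42, adjusted p = 3.99e-06).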
